A study of Caenorhabditis elegans with 16 samples.

Results

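The comparison set 4 small RNA libraries of worms whose hrde-1 mutation had been repaired against 2 libraries of worms that had never carried it, in 2 genetic backgrounds of Caenorhabditis elegans with an intact set-32 gene. These 6 libraries were taken by genotype from the 16 of the series and not by any measured value. The never mutant libraries were N2, the wild-type strain, and a strain with both met-2(n4256) and set-25(n5021), here called met-2 set-25. The repaired libraries carried hrde-1(+R) in each of these backgrounds and were taken at generations F5 and F20 after the repair. All 4 repaired libraries came from lines that had carried hrde-1(tm1200), and the met-2 set-25 mutations were present in both arms of their background. The hrde-1(tm1200) mutants of both backgrounds, and the same states in set-32(ok1457) and set-32(red11), are used only where named. Each genotype and state had 1 library of young adult hermaphrodites, cloned so that a 5′ monophosphate was not required. The p-values below therefore measure the spread between generations and backgrounds, not between cultures of a strain. No single value can pass 0.05 in an exact two-sided permutation test. That test reaches 0.0667 at best with 4 libraries against 2, and 0.111 with labels exchanged only within a background.

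In the germline, the Argonaute protein HRDE-1 acts in the nucleus. It binds secondary siRNAs, which RNA-dependent RNA polymerases make on target transcripts, and it carries silencing from one generation to the next. MET-2 and SET-25 are histone H3 lysine methyltransferases, and SET-32 is a SET-domain protein that takes part in setting up nuclear RNAi. The question here was what remained different in the small RNAs once hrde-1 had been restored and SET-32 was present throughout.

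The values are RPKM, reads scaled to bin length and library size, per 1 kb bin, and the 25407 bins that averaged 5 RPKM or more across all 16 libraries were tested. The 6 libraries held 142000 to 500000 reads in the bins, so that 1 read was worth 1.451 RPKM in N2, 1.756 to 2.761 RPKM in 4 others and 6.315 RPKM in the met-2 set-25 library at F5, the shallowest. That library stood apart: its intestine marker genes summed to 616 RPKM against 4414 to 7709 RPKM in the other 5. Library names began with SG0717 for the repaired side, with SG1116 for N2 and with SG0315 for the never mutant met-2 set-25 library. Name prefix and state therefore cannot be told apart. The hrde-1 mutant libraries of both backgrounds had names beginning with SG0315. The prefix thus also differed between mutant and repaired libraries, and between the wild-type mutant and N2. The met-2 locus summed to 52.1 to 63.0 RPKM in the 3 met-2 set-25 libraries and to 151 to 245 RPKM in the 3 wild-type ones, in the direction of the labels. The hrde-1 locus, at III:4172001-4177000, summed to 326 RPKM in N2, 438 at F5 and 424 at F20, and to 466, 592 and 453 RPKM in the same states of met-2 set-25. The 2 hrde-1 mutants held 248 and 253 RPKM there, below all 6, and which bins the tm1200 allele removes was not analysed here.

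After repair, 11 bins were higher than in the never mutant worms and 0 were lower (limma, Benjamini-Hochberg adjusted p under 0.05 over all tested bins, hereafter called). Merging only directly adjacent bins left 10 regions, more than 1 of them within klp-20. These were 0.0433% of the tested bins, and 0.0% for the lower direction. At an unadjusted p under 0.05 limma gave 1310 bins above 0 and 1360 below, and the median difference over all tested bins was 0.04 on the log2(RPKM + 5) scale. The 11 bins lay over wrt-5, klp-20 (4 bins), F53A3.1, cisd-3.1, deps-1, fbxa-216, H14E04.3 and cku-80 or their neighbours. Of these, 8 were on chromosome III, which held 18.2% of the tested bins, but 4 of the 8 lay over klp-20 alone. None carried the authors' marks GRH, GRTS or misanotated. The count rests on few libraries: it was 0 without N2 or without wild type at F5, 1 without either F20 library, 5 without the never mutant met-2 set-25 library, of which 1 was among the 11, and 8 without met-2 set-25 at F5, all 8 among the 11. With a pseudocount of 1 in place of 5, 1 bin passed, wrt-5.

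**Figure D1:**
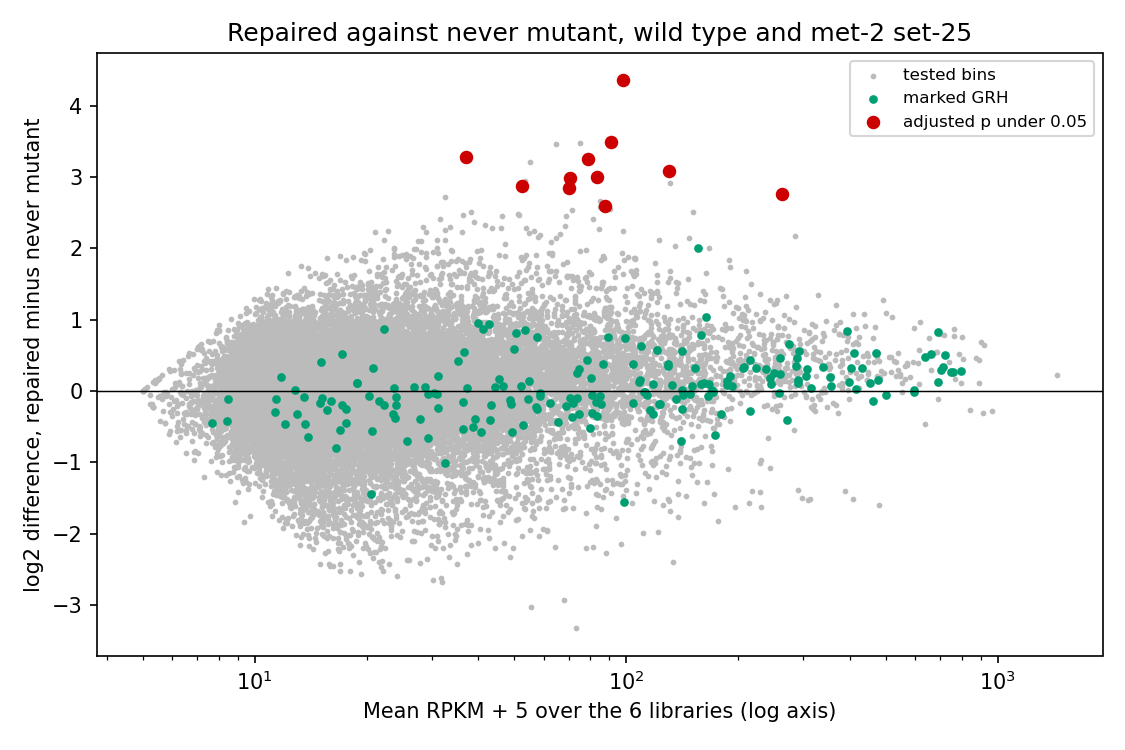
Each point is a tested bin, with its mean level over the 6 libraries as RPKM + 5 on a log axis and its log2 difference, repaired minus never mutant, on the vertical axis. The 11 bins past the threshold, in red, all lie above 0, at differences of 2.59 to 4.36, while the bins marked GRH, in green, lie around 0 with a median of 0.03.

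The largest difference lay over wrt-5 at IV:4050001-4051000, a gene of the warthog family of hedgehog-like proteins. The bin held 1.45 RPKM in N2, and 132 and 85.5 RPKM in the wild-type libraries at F5 and F20. In met-2 set-25 it held 1.86 RPKM in the never mutant library, 220 at F5 and 118 at F20. Each never mutant value equals a single read, and all 4 repaired libraries lay far above them, with no overlap. The log2 difference was 4.36 ± 0.38 (SE, limma adjusted p = 0.00849). The bin was also filled while hrde-1 was mutant, at 54 RPKM in wild type and 23.5 RPKM in met-2 set-25. The set-32 backgrounds showed the same order: 5.75 and 12.23 RPKM in their never mutant libraries, 38.3 and 112 RPKM in their hrde-1 mutants, and 39.5 to 146 RPKM in their 4 repaired libraries.

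A stretch over klp-20, which codes for a kinesin-like motor protein, and its neighbours hpo-38 and hpo-29 on chromosome III held 4 of the 11 bins. All 9 tested bins of klp-20 were higher in all 4 repaired libraries than in the never mutant library of their own background, and 4 of the 9 passed. Over all tested bins 15% were higher in all 4. The stretch was picked by its called bins, and all its bins share the same 2 never mutant libraries. The klp-20 bin at III:225001-226000 held 0 RPKM in N2, a value that allows up to 4.35 RPKM at 3 reads, against 116 at F5 and 70.9 at F20. In met-2 set-25 the same bin held 18.8 RPKM in the never mutant library, 183 at F5 and 129 at F20. Both backgrounds were low in the never mutant library and high in both repaired ones, at a log2 difference of 3.50 ± 0.42 (SE, limma adjusted p = 0.0334). The most abundant bin, at III:223001-224000, which also overlaps Y50D7A.15, held 22 RPKM in N2 and 331 and 227 RPKM in its repaired libraries. In met-2 set-25 its values were 91.2 RPKM and then 554 and 317 RPKM. The never mutant met-2 set-25 library thus stood above N2 in these 2 bins and still below all 4 repaired libraries, and the difference at III:223001-224000 was 2.76 ± 0.38 (SE, adjusted p = 0.0472).

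The filled part of the stretch began with the bin centred 11.51 kb from the start of klp-20. The 10 bins before it that overlap no other gene held at most 2.79 RPKM in any of the 6 libraries. Beyond klp-20, hpo-38 at III:232001-233000 held 5.96, 202 and 153 RPKM in wild type and 46.6, 208 and 142 RPKM in met-2 set-25, in the order never mutant, F5 and F20. The bin shared by hpo-29 and hpo-38 at III:235001-236000 held 4.35 and 0 RPKM in the never mutant libraries and 33.4 to 44.2 RPKM in the repaired ones. Both were higher in all 4 repaired libraries, at 2.91 and 2.72 on the log2 scale, and neither passed (adjusted p = 0.12 and 0.0662). Between them, the bin at III:233001-234000 did not share the direction, with a difference of −0.55 (limma adjusted p = 0.729). The bin at III:234001-235000, also between them, did share it, at 1.96 (limma adjusted p = 0.249).

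**Figure D2:**
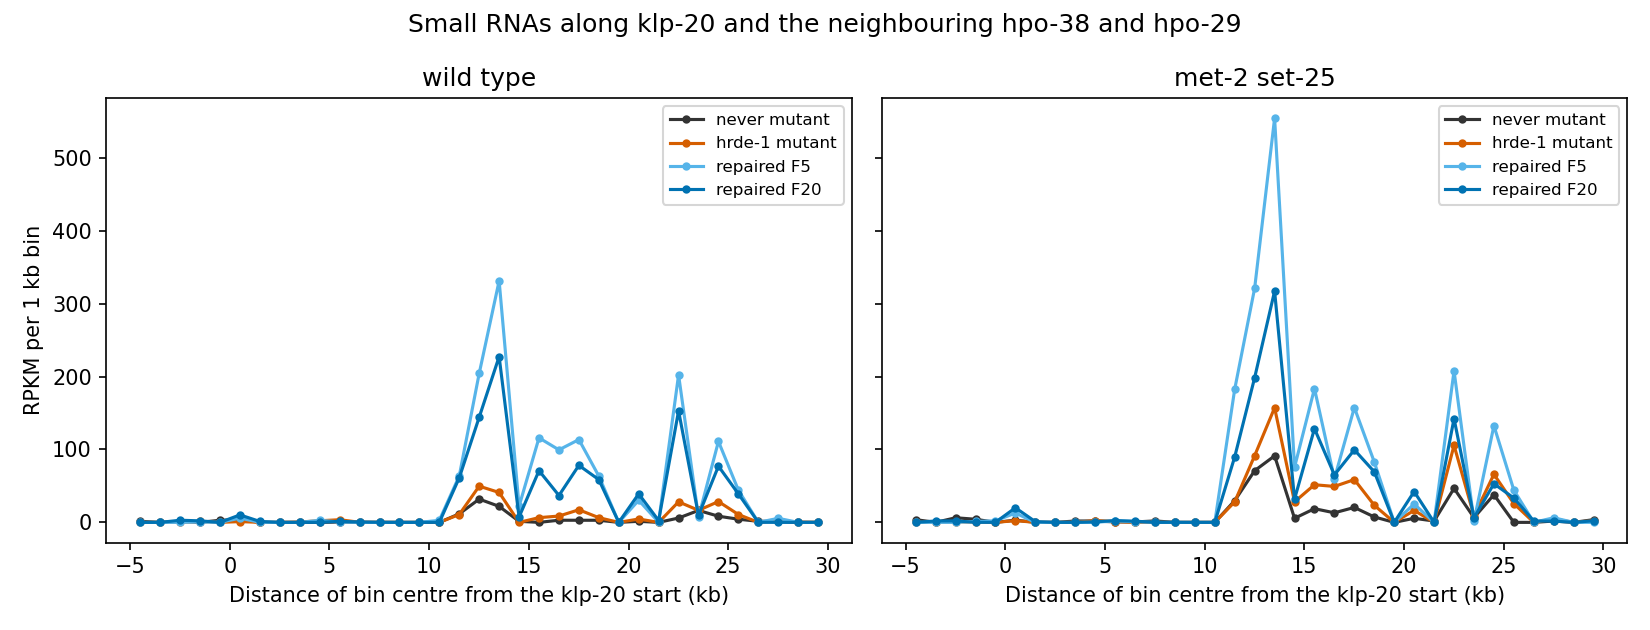
RPKM per 1 kb bin along klp-20, hpo-38 and hpo-29, against the distance of the bin centre from the klp-20 start in kb, with 1 line per library in each background. From 11.51 kb onwards most bins of the repaired libraries lie above the never mutant library in both panels, and the hrde-1 mutant line lies between them in met-2 set-25 and near the never mutant line in wild type.

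The stretch was one of the places where the hrde-1 mutant and the repaired worms parted. In wild type the hrde-1 mutant held 6.48 RPKM at III:225001-226000, near N2, whereas in met-2 set-25 it held 51.6 RPKM, between the never mutant and the repaired libraries. In set-32(ok1457) that bin was low in the never mutant library at 5.92 RPKM and high in the mutant and both repaired libraries at 68.3 to 81.4 RPKM. In set-32(red11) it stayed at 0 to 7.85 RPKM in all 4 states. The bin was thus high after repair in 3 of the 4 backgrounds and in neither repaired set-32(red11) library.

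The other called bins on chromosome III lay over 4 loci. F53A3.1 at III:1940001-1941000 held 0 RPKM in N2, 29 at F5 and 32.1 at F20, and 0.02, 88.2 and 43.7 RPKM in the same order in met-2 set-25. The cisd-3.1 bin at III:4545001-4546000, which overlaps M88.3 as well, held 10.2, 75.1 and 109 RPKM in wild type and 3.72, 139 and 106 RPKM in met-2 set-25. cisd-3.1 codes for a CDGSH iron-sulfur domain protein. The 2 bins had no overlap between never mutant and repaired libraries, and their log2 differences were 3.29 ± 0.43 and 3.26 ± 0.38 (SE, limma adjusted p = 0.0400 and 0.0334).

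The bin of H14E04.3 and H14E04.6 at III:2385001-2386000 held 5.80, 96.6 and 61.1 RPKM in wild type and 11.2, 132 and 85.2 RPKM in met-2 set-25, and both hrde-1 mutants were as high, at 127 and 91.5 RPKM. cku-80 codes for the Ku80 subunit of the complex that binds broken DNA ends. Its bin at III:4423001-4424000, shared with C28A5.6, held 13.1, 131 and 102 RPKM in wild type and 16.8, 139 and 94.0 RPKM in met-2 set-25. The repaired libraries of both backgrounds lay close together in this bin, between 94.0 and 139 RPKM, and well above both never mutant values. The differences were 2.85 ± 0.36 for the H14E04.3 bin and 2.59 ± 0.33 for the cku-80 bin (SE, limma adjusted p = 0.0342 for each).

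Chromosome I held the last 2 bins. deps-1 codes for a P granule protein that germline RNAi requires. Its bin at I:509001-510000, shared with Y65B4BL.7, held 18.9, 146 and 110.0 RPKM in wild type and 13.04, 258 and 206 RPKM in met-2 set-25. Here the hrde-1 mutants, at 147 and 98.5 RPKM, and the never mutant set-32 libraries, at 183 and 98.0 RPKM, were high too, and N2 and the never mutant met-2 set-25 library were the only 2 low values among the 16. fbxa-216, a gene of the F-box A family, held 10.9, 95.2 and 72.1 RPKM at I:11902001-11903000 in wild type and 4.65, 120 and 90.4 RPKM in met-2 set-25. Only the 4 repaired libraries of these backgrounds were high in that bin: both hrde-1 mutants held 10.8 and 15.3 RPKM, and the 8 set-32 libraries held 0 to 27.7 RPKM. The differences were 3.09 ± 0.36 and 2.98 ± 0.37 (SE, limma adjusted p = 0.0334 and 0.0342).

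**Figure D3:**
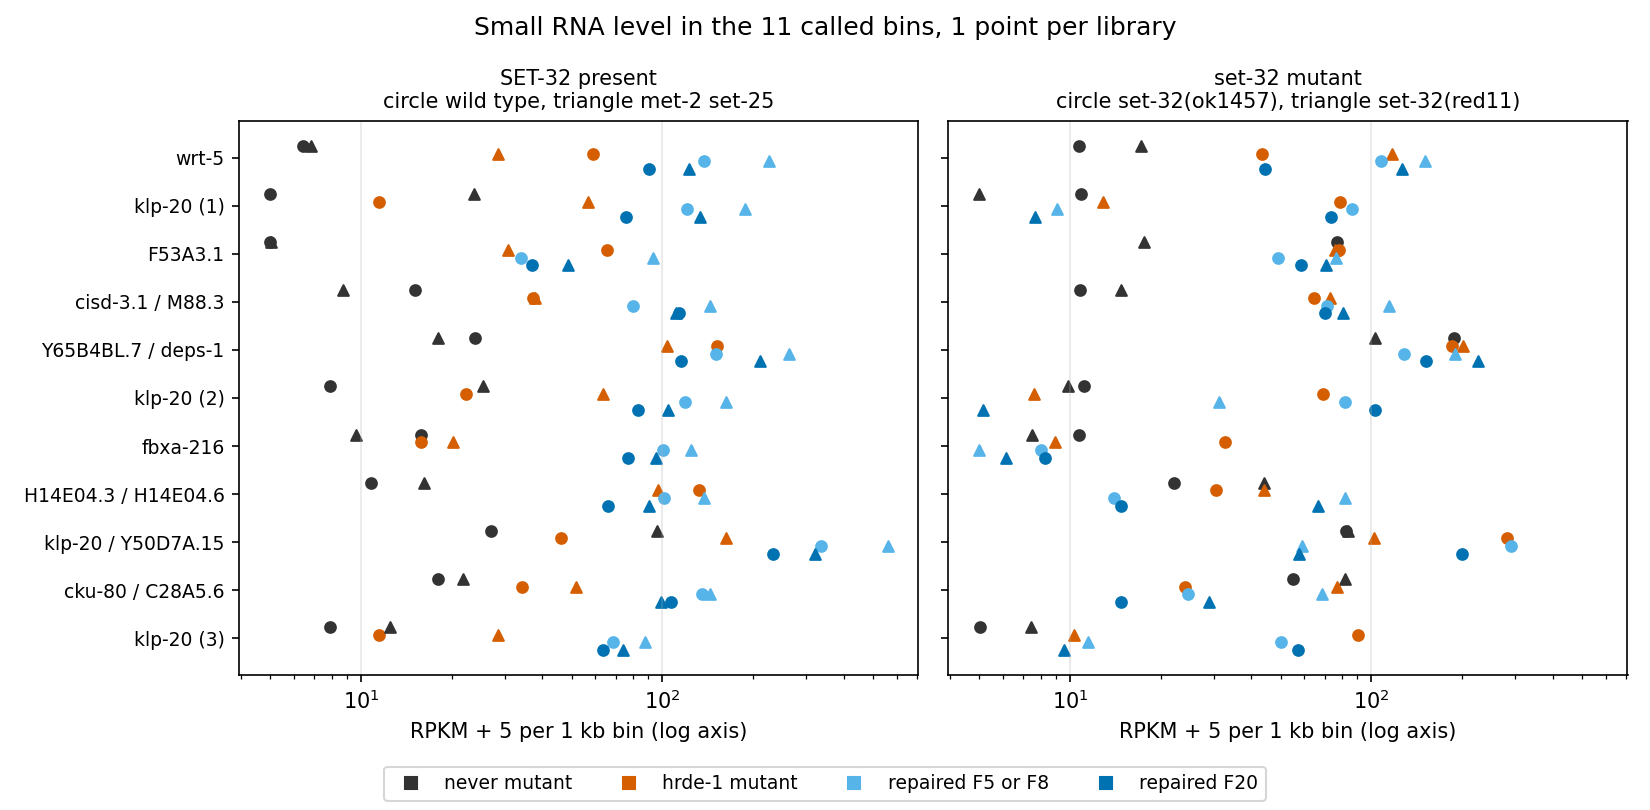
Level of the 11 called bins as RPKM + 5 on a log axis, 1 point per library, with wild type (circles) and met-2 set-25 (triangles) on the left and the 2 set-32 alleles on the right. In the left panel the repaired libraries (blue) lie to the right of the never mutant libraries (black) in every bin, and the hrde-1 mutants (orange) range from the never mutant level, as in fbxa-216, to the repaired level, as in H14E04.3.

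On the RPKM + 5 scale, 7 of the 11 bins were more than 2-fold higher in the wild-type hrde-1 mutant than in N2, and 10 of the 11 in the met-2 set-25 mutant than in its never mutant library. These mutant values share the never mutant libraries with the repaired comparison and are not independent of it. The bins were called with those libraries low, and the same count was not made over all tested bins. Over all tested bins the median log2 difference was 0.23 in the wild-type mutant and −0.02 in the met-2 set-25 mutant. Between the backgrounds, the difference after repair was tested bin by bin: limma called 0 higher and 0 lower bins (0.0% each), with 671 and 1288 at an unadjusted p under 0.05. Of the 11 bins, only the klp-20 bin at III:225001-226000 had an unadjusted p under 0.05 in this test, the difference being 1.52 log2 units smaller in met-2 set-25, a log2 value of −1.52. With the backgrounds taken alone, limma called 0 higher and 0 lower bins in wild type (0.0% each, 1858 and 1388 unadjusted) and 0 and 0 in met-2 set-25 (0.0% each, 682 and 777 unadjusted), where each contrast rests on 2 repaired libraries and 1 never mutant library. Without the met-2 set-25 library at F5, which leaves 1 residual degree of freedom, limma called 1099 higher and 945 lower in wild type, 24 and 16 in met-2 set-25, and 50 and 167 for the difference between the backgrounds.

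The 2 generations were also fitted apart. At F5 against the never mutant libraries, 1 bin passed, wrt-5, as higher (0.00394%) and 0 as lower (0.0%), with 1446 and 1650 bins unadjusted. At F20, 0 passed in either direction (0.0% each, 558 and 714 unadjusted). Without the met-2 set-25 library at F5, 12 higher and 5 lower bins passed at F5 and 15 and 2 at F20. The log2 differences of wrt-5 were 4.73 at F5 and 3.99 at F20, and those of klp-20 at III:225001-226000 were 3.79 and 3.21. Among the 11 bins the cisd-3.1 bin alone had an F20 difference above its F5 difference, 3.29 against 3.22, and its generations differed by less than the SE of 0.38.

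The 12 bins of smallest p in the other direction that were lower in all 4 repaired libraries did not pass (smallest adjusted p = 0.179). col-129, a cuticle collagen gene, held 325 RPKM in N2 at IV:12109001-12110000, 4.6 at F5 and 31.9 at F20, and 40.2, 0 and 7.51 RPKM in met-2 set-25. The bin of col-159 and col-160, also collagen genes, held 242, 34.0 and 65.0 RPKM in wild type and 113, 9.86 and 33.9 RPKM in met-2 set-25. In both bins all 4 repaired libraries lay below the never mutant library of their own background, although in the first the 31.9 RPKM of wild type at F20 approached the 40.2 RPKM of never mutant met-2 set-25. The bin shared by stc-1, an Hsp70-like chaperone gene, and F54C9.14 held 29.01, 2.76 and 3.26 RPKM in wild type and 85.7, 12.63 and 16.09 RPKM in met-2 set-25. The others overlapped col-81, unc-120, which codes for a muscle transcription factor, epic-2, C30G7.3, BE10.5, K01D12.15, F58D2.2 and M18.3, and 1 overlapped no named gene.

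The muscle, intestine, and hypodermis and cuticle marker lists also had lower medians in all 4 repaired libraries. The neuron list did not: its medians were 0.30 and 0.32 in wild type and −0.29 and −0.40 in met-2 set-25, at F5 and F20. Of 33 tested muscle bins, 28 were below the never mutant library of their background in all 4 and 1 above, against 13.2% below and 15% above over all tested bins. The muscle list had a median log2 difference of −1.37, and its summed level was 2506 RPKM in N2 and 643 and 644 RPKM in the repaired wild-type libraries, and 1326, 349 and 709 RPKM in met-2 set-25. unc-54, the body wall myosin heavy chain, held 144, 30.4 and 30.5 RPKM in wild type at I:14860001-14861000 and 59.1, 23.6 and 19.6 RPKM in met-2 set-25. The intestine list had 25 of 36 bins lower in all 4 libraries and 0 higher, at a median of −1.09, and its summed level was 7709, 4414 and 4731 RPKM in wild type and 7426, 616 and 6343 RPKM in met-2 set-25. Without the met-2 set-25 library at F5 that median was −0.42. The hypodermis and cuticle list had 8 of 13 bins lower and 0 higher, at a median of −1.26, or −0.76 without that library. No bin of these lists passed the test, their part in the differences of other genes was not tested, and in whole animals fewer cells of a type and less RNA per cell cannot be told apart.

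The ribosomal protein genes showed the same direction with more members. Of 129 tested bins, 92 (71.3%) were lower in all 4 repaired libraries, against 13.2% of all tested bins, and 1 higher, with 0 called. The list summed to 13133 RPKM in N2 and to 5528 and 5396 RPKM after repair, and to 7881, 4356 and 5202 RPKM in met-2 set-25. N2 was the highest of the 6, and even the lower of the 2 never mutant values exceeded all 4 repaired ones. The median difference was −1.01, and by library it was −1.16 in both wild-type generations, and in met-2 set-25 −1.198 at F5 and −0.56 at F20. The hrde-1 mutants had medians of −0.37 in wild type and 0.14 in met-2 set-25.

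The bins of sperm genes summed to 5258 RPKM in N2 and to 1640 and 1963 RPKM in its repaired libraries, whereas the met-2 set-25 libraries held 2717, 2528 and 2462 RPKM. The difference between the backgrounds was not tested for the list. Its median was −1.15 in wild type and −0.09 in met-2 set-25, and −0.69 over both, with 35 of 103 bins lower in all 4 repaired libraries and 3 higher. Oocyte and germline genes had a median of −0.04, with 11 of 124 bins higher in all 4 and 15 lower. Beside both lists, 15% of all tested bins were higher in all 4 and 13.2% lower. The neuron list had a median of −0.16 over 17 bins, the list of heat shock and stress genes −0.58 over 18 bins, and the histone genes 0.11 over 73 bins, with 0 bins called in any of them.

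**Figure D4:**
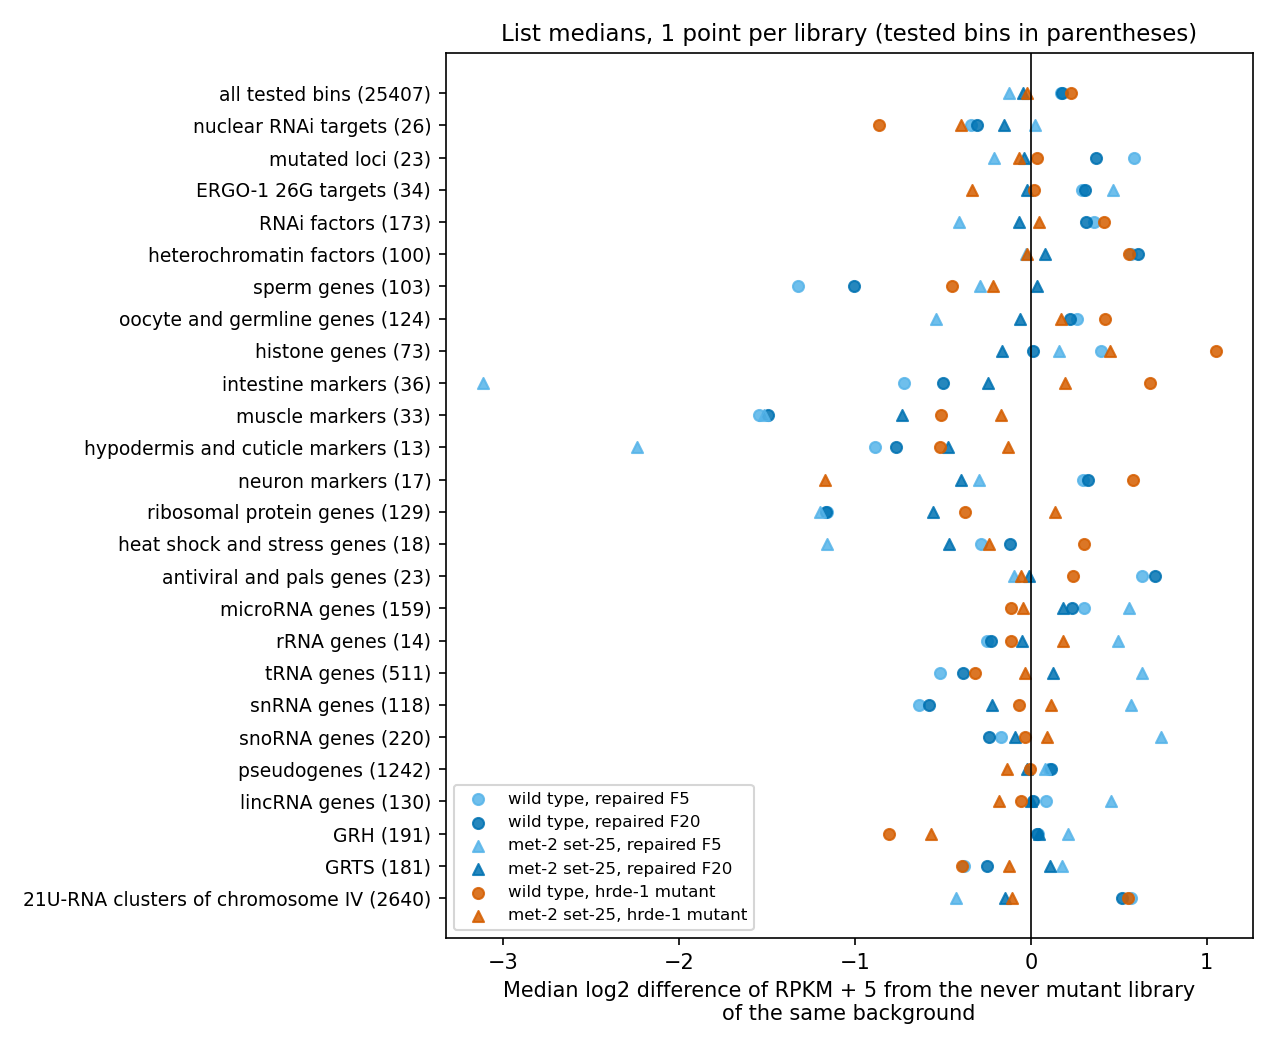
Median log2 difference of each list of genes from the never mutant library of the same background, 1 point per library, with repaired libraries in blue, hrde-1 mutants in orange, wild type as circles and met-2 set-25 as triangles. The muscle, hypodermis, intestine and ribosomal protein lists lie left of 0 in all 4 repaired libraries, and the GRH list lies near 0 after repair and at −0.80 and −0.57 in the hrde-1 mutants.

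The bins marked GRH had a median below 0 in the hrde-1 mutants and near 0 after repair. The authors' mark GRH covered 191 tested bins. Its meaning and the libraries it was set on are not stated. In the hrde-1 mutants the GRH bins had a median of −0.80 in wild type and −0.57 in met-2 set-25. After repair the wild-type medians were 0.04 in both generations, and those of met-2 set-25 were 0.21 and 0.04. Over all 4 repaired libraries the median was 0.03, with 38 of 191 bins (19.9%) higher in all 4 and 17 (8.9%) lower, and 0 were called. The GRTS bins, marked in the same table, had a median of −0.10 after repair, with 16 of 181 bins (8.8%) higher in all 4 and 41 (22.7%) lower. Beside both marks, 15% of all tested bins were higher in all 4 and 13.2% lower.

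The 8 genes listed as targets of germline nuclear RNAi did not all follow one pattern. F15D4.5, on chromosome II, summed to 1361 RPKM in N2, 451 in the wild-type hrde-1 mutant, and 1254 at F5 and 1309 at F20. In met-2 set-25 the values were 969 RPKM in the never mutant library, 478 in the mutant, and 1360 and 1340 after repair. Both mutants were low. In wild type both repaired sums of F15D4.5 lay slightly below N2, and in met-2 set-25 both lay above the never mutant library. Its neighbour F15D4.6 held 253, 185 and 152 RPKM in wild type, in the order never mutant, F5 and F20, and 159, 170 and 144 RPKM in met-2 set-25, against 48.6 and 46.9 RPKM in the hrde-1 mutants.

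F07B7.1 and F07B7.2 on chromosome V each had bins at 2 sites, and how reads matching both sites were assigned is not stated. The bin at V:8872001-8873000 entered the sums of both genes. F07B7.1 held 656, 557 and 525 RPKM in wild type and 374, 332 and 355 RPKM in met-2 set-25, with 118 and 115 RPKM in the mutants. F07B7.2 held 639, 418 and 443 RPKM in wild type and 298, 190 and 234 RPKM in met-2 set-25, so that all 4 repaired libraries were below their never mutant library, with a mean log2 difference of −0.53 ± 0.13 (SD, n = 4). bath-45 was above it in all 4, at 1259, 1421 and 1408 RPKM and at 949, 1286 and 1041 RPKM. C38D9.2, in a window of chromosome V where gene names are less certain, held 743, 497 and 641 RPKM and 440, 247 and 284 RPKM, and its mutant values of 259 and 220 RPKM lay near the repaired ones in met-2 set-25 only. F07B7.2 was not lower in the met-2 set-25 mutant, at 331 RPKM, than in its never mutant library. W05H12.2 held 97.4, 173 and 179 RPKM in wild type and 159, 246 and 140 RPKM in met-2 set-25, and its wild-type hrde-1 mutant, at 92 RPKM, lay close to N2. R03D7.2 held 209, 185 and 157 RPKM and 406, 301 and 376 RPKM, below the never mutant library in all 4. Of the 26 tested bins of the list, 2 (7.7%) were higher in all 4 repaired libraries and 9 (34.6%) lower, at a median of −0.22, and 0 were called. All tested bins had shares of 15% and 13.2%.

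**Figure D5:**
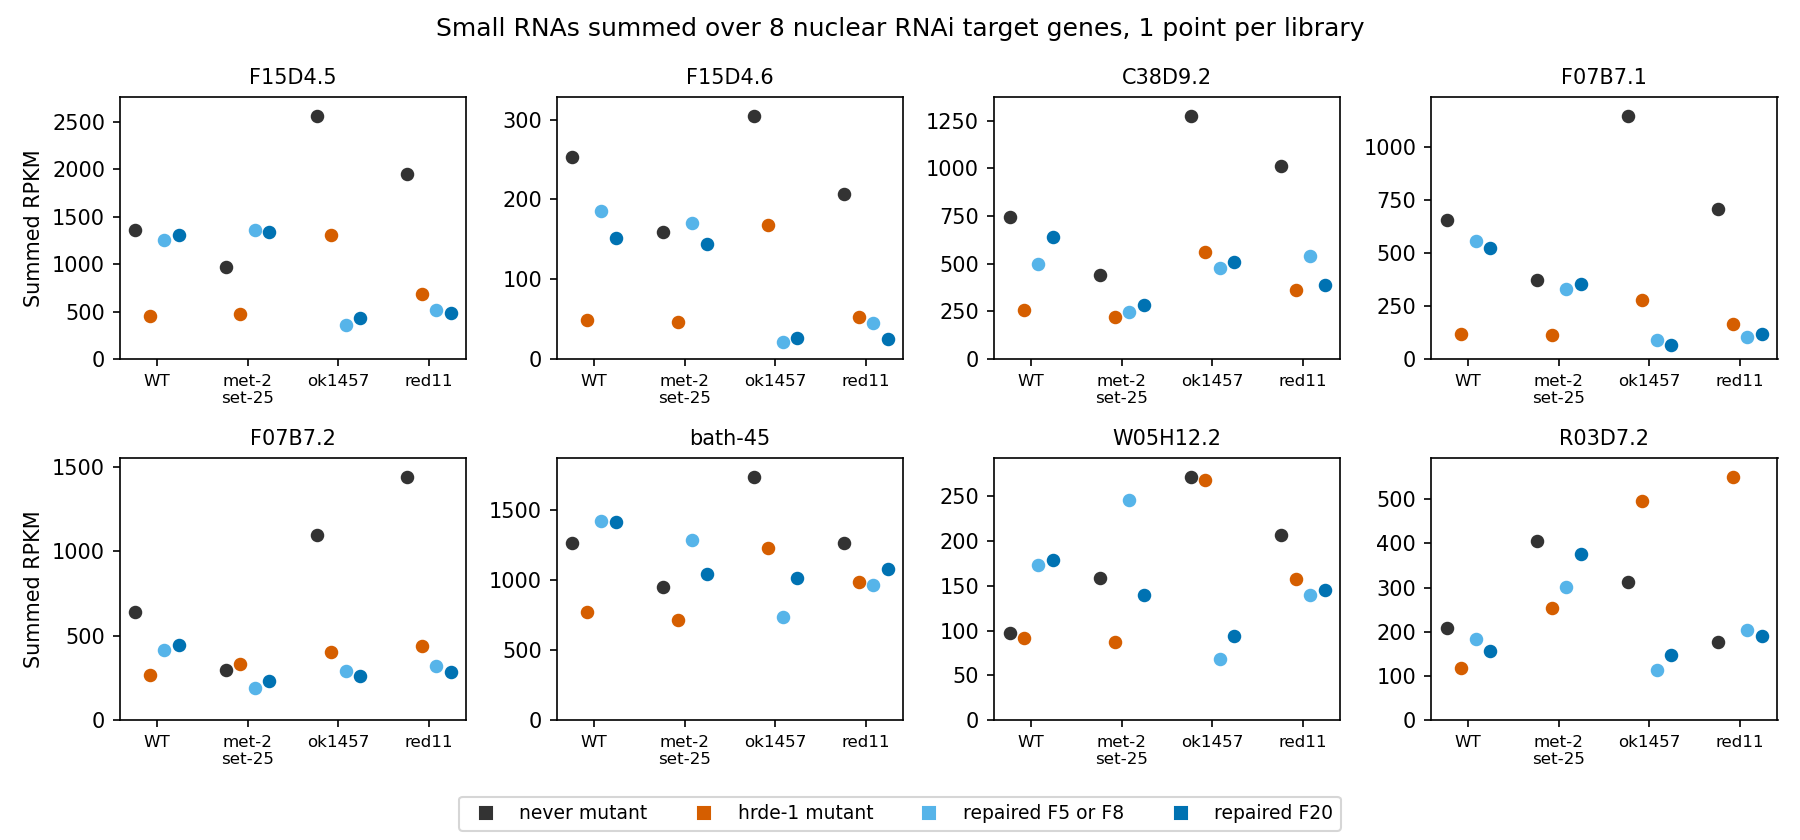
Summed RPKM over the bins of 8 nuclear RNAi target genes, 1 point per library, in wild type (WT), met-2 set-25 and the set-32 alleles ok1457 and red11. For F15D4.5 the repaired libraries (blue) of wild type and met-2 set-25 lie at 1254 to 1360 RPKM, and the never mutant libraries (black) at 1361 and 969 RPKM. The repaired libraries of the set-32 alleles lie at 355 to 516 RPKM, below never mutant values of 2559 and 1952 RPKM.

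The same contrast in the set-32 mutants, where the repaired libraries were taken at F5 or F8 and at F20, was set against this one in a fit over 12 libraries. All 6 set-32 libraries in it had names beginning with SG0717, never mutant and repaired alike. With SET-32 present the prefix changed with the state, so name prefix and the set-32 difference cannot be told apart. The F15D4.5 bin at II:13246001-13247000 differed most among the nuclear RNAi targets. It held 694, 513 and 586 RPKM in wild type and 483, 539 and 723 RPKM in met-2 set-25, and its difference after repair was 4.05 log2 units lower with set-32 mutant, a log2 value of −4.05 (limma adjusted p = 0.000507). F07B7.1 summed to 67.2 to 119.3 RPKM in the 4 repaired set-32 libraries, against 1148 and 709 RPKM in the never mutant ones, a range that overlaps the hrde-1 mutants of wild type and met-2 set-25. Of the 26 target bins 10 were lower in this test and 1 higher, and of the GRH bins 28 were lower and 0 higher, against 854 (3.36%) lower and 567 (2.23%) higher of all tested bins. The GRH bins had a median of −0.83 in this test and the targets of −1.12, beside a median of −0.37 over all tested bins.

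All 11 bins that were higher after repair with SET-32 present had a negative value in this test, and 6 passed. The test reuses and subtracts the difference these bins were called on, so the calling favoured a negative value. The share of negative values over all tested bins was not counted. cku-80 had the largest, at −3.80 (limma adjusted p = 0.00169), followed by fbxa-216 at −3.40, deps-1 at −2.80, H14E04.3 at −2.79, F53A3.1 at −2.52 and the klp-20 bin at III:223001-224000 at −2.24 (adjusted p = 0.0432). In the cku-80 bin the never mutant set-32 libraries held 50.03 and 77.1 RPKM and the repaired ones 9.75 to 63.8 RPKM, whereas in fbxa-216 all 6 lay at or below 5.72 RPKM. wrt-5 and cisd-3.1 did not pass, at −1.51 and −0.55. The fit joins the set-32 alleles, which went opposite ways in some bins that passed. In the klp-20 bin at III:223001-224000, set-32(ok1457) held 77.2 RPKM in the never mutant library and 285 and 195 RPKM after repair. There set-32(red11) held 78.4, 53.9 and 52.6 RPKM. In the H14E04.3 bin, set-32(ok1457) held 17.15, 9.04 and 9.76 RPKM and set-32(red11) 39.1, 77.0 and 61.7 RPKM.

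The scaling matters for this test. After centring the log2 values of every library on its own median, 804 bins were higher and 408 lower, and with libraries rescaled to one sum 644 and 291; the median shift was then −0.07 and −0.04. Under both, 4 of the 11 bins passed, all lower: deps-1, fbxa-216, H14E04.3 and cku-80. The GRH median became −0.53 and −0.44 and the target median −0.81 and −0.65, whereas the GRTS median changed sign from −0.21 to 0.10 and 0.23. Both never mutant set-32 libraries had intestine marker sums of 157 and 138 RPKM and their repaired libraries 5196 to 9002 RPKM, so that for the set-32 alleles the state and the somatic signal cannot be told apart.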

How the data were processed

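Small RNAs of young adult hermaphrodites were measured in 16 libraries, of which 6 enter the comparison. The authors deposited 1 table of RPKM values for 100257 bins of 1000 bp, with other yes/no columns (GRH, GRTS, misanotated). Bowtie 0.12.7 is among the tools in the submitters' processing notes. No build is named, the treatment of multiply matching reads and the basis of the RPKM scaling are not stated, and 27 library columns that matched no sample were not used.

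Bins were named from WBcel235 genes overlapping them on either strand, with 2756 of 2811 unnamed genes named from RefSeq. Values were set against exon positions in 102 windows of 1 Mb at shifts of up to 8 kb: 95 matched best at shift 0, and no names were used on chromosome V beyond 19 Mb. Coordinates are those of the deposited bins. Strand and read length are not separated, so siRNAs and mRNA fragments add up in a bin. Depth was read from the spacing of low values, of which 50.2 to 74.4% lay within 0.05 of a whole number of reads, too few to recover counts. Precision is therefore that of 142000 to 500000 reads, and a value of 0 covers counting error only.

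limma 3.58.1 (R 4.3.3; lmFit, eBayes with trend) was fitted to log2(RPKM + 5) over the 25407 bins averaging 5 RPKM or more, with the background as block, 3 residual degrees of freedom and Benjamini-Hochberg adjustment, and was tested on simulated data. Differences of low bins depend on the pseudocount. Lists are described by counts and medians without a test. Named are up to 12 regions a direction by size of change, filled with the smallest p where fewer passed, and the genes of the lists. Members, lists and tests were chosen with earlier results of these data known. Alternatives changed the pseudocount, filter, scaling, moderation, block, source of the spread and the libraries used.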

Additional observations from a re-analysis of the deposited data

Results flagged for a closer look

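In 6 results, 1 of the 4 repaired libraries lay apart from the other 3, judged by the gap to its nearest neighbour divided by the range of the 4 (Dixon's test); chance flags about 1 in 20 such groups. For the list medians of the log2 difference this ratio was 0.833 for intestine markers and 0.942 for ribosomal protein genes, and 0.933 for muscle markers. It was 0.851 for snoRNA genes and 0.952 for the GRH bins. The met-2 set-25 library at F5 was the separate one for the intestine, snoRNA and GRH lists, and the met-2 set-25 library at F20 for the muscle and ribosomal protein lists. Among single bins, the ratio was 0.833 for the bin of F58D2.2 and F58D2.5.

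In 9 lists both repaired libraries of wild type lay on one side of N2 and both of met-2 set-25 on the other side of their never mutant library. The difference of the list median, met-2 set-25 minus wild type, was −0.52 for the mutated loci, −0.55 for the RNAi factors, −0.59 for oocyte and germline genes, −0.96 for neuron markers, −0.71 for antiviral and pals genes and −0.86 for the 21U-RNA clusters of chromosome IV. It was 0.83 for tRNA genes, 0.49 for GRTS and 0.41 for the bins marked misanotated. Over all tested bins the medians lay apart as well, at 0.17 in wild type and −0.09 in met-2 set-25. These 9 differences were not tested, and each background has 1 never mutant library.

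In 6 of the 11 bins called after repair, the difference itself differed between set-32 mutants and worms with SET-32 (limma, adjusted p under 0.05). The test reuses and subtracts the difference on which the bins were called, which favours a negative value. Name prefix cannot be told apart from this difference either. Over all tested bins, 854 (3.36%) were lower and 567 (2.23%) higher. The values were −2.52 for F53A3.1, −2.80 for deps-1, −3.40 for fbxa-216, −2.79 for H14E04.3, −2.24 for the klp-20 bin at III:223001-224000 and −3.80 for cku-80. F53A3.1 and the klp-20 bin no longer passed after centring (adjusted p = 0.0815 and 0.0625) or rescaling (0.0904 and 0.125), by limma.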

How the results depend on the processing

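Depth limits single bins: 3 reads were worth 4.35 RPKM in N2 and 18.95 RPKM in met-2 set-25 at F5. No paired analysis was possible because the labels carry no replicate numbers; the block is the background. The wrt-5 bin passed in 14 of 18 alternatives, the most of any called bin. Each of the other called bins passed in 6 to 10 of 18. The fewest were for klp-20 at III:227001-228000 and the most for klp-20 at III:225001-226000. Of the 443 alternative values of single named bins, 325 kept their direction and side of the threshold, 100 no longer passed, 18 passed newly and 0 reversed. The 443 include named bins that were not called, which keep their side by not passing. All 100 losses therefore fall on called bins.

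Bins higher after repair numbered 11 and became 1 with a pseudocount of 1, without the trend or without the block, 0 without the filter, and 29 with the spread from 12 libraries, where 19 were lower and 10 of the 29 were among the 11. Leaving out 1 library gave 0 to 8 higher and 0 lower. The cause was not tested.

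At F5, higher bins numbered 0 without the filter or the trend, 17 with the filter over the 6 libraries, 34 at a mean of at least 20 and 19 after centring, and lower bins 2, 12 and 2 under the last 3. At F20, 1 bin was higher under each of these 3. Without met-2 set-25 at F5 the counts were 12 and 5 at F5 and 15 and 2 at F20. In wild type alone, higher and lower bins numbered 73 and 269 at a pseudocount of 20, 36 and 3127 without the filter, 58 and 19 with the filter over 6 libraries, 97 and 13 at a mean of at least 20, 48 and 51 after centring, and 1099 and 945 without met-2 set-25 at F5. In met-2 set-25 alone, they numbered 3 and 6, 21 and 2768, 4 and 0 for the first 3, 5 and 0 after centring, and 24 and 16 without its F5 library. The difference between backgrounds gave 2781 and 2462 without the filter and 50 and 167 without met-2 set-25 at F5. Where bins near 0 were kept, limma offset variances of zero.

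For the set-32 difference, higher bins numbered 337 at a mean of at least 20, and lower bins 517 at a pseudocount of 1, 214 without the filter, 408 after centring, 291 after rescaling and 524 without the trend; without met-2 set-25 at F5 it gave 585 and 860.

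List medians of muscle markers were −1.81 and −0.71 at pseudocounts of 1 and 20 and −0.58 without the filter. Without the filter those of hypodermis and cuticle markers and of microRNA genes were −0.32 and 0.10, and at a mean of at least 20 those of neuron markers and pseudogenes 0.69 and 0.17. Leaving out 1 library gave −0.67 to 0.29 for neuron markers and −0.06 to 0.65 for antiviral and pals genes.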

Other observations

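ERGO-1 targets are loci that the 26G siRNA pathway silences. Of their 34 tested bins, 8 (23.5%) were higher in all 4 repaired libraries and 1 (2.9%) lower, at a median of 0.26, with 0 called. All tested bins had shares of 15% and 13.2%. E01G4.5 at II:13473001-13474000 held 37.0 RPKM in N2, 540 at F5 and 412 at F20, and 140 RPKM in never mutant met-2 set-25, 375 at F5 and 174 at F20. Its levels were higher after repair in both backgrounds, and its log2 difference of 2.18 ± 0.54 did not pass (SE, limma adjusted p = 0.249). F39F10.4 held 15.2, 88.3 and 100.1 RPKM in wild type and 36.3, 94.8 and 56.5 RPKM in met-2 set-25, at 1.61 (adjusted p = 0.249). Both had a lower difference in the set-32 mutants in the test over 12 libraries, at −3.86 and −3.43 (limma adjusted p = 0.00939 and 0.00974).

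Among genes of small RNA and chromatin pathways, the bin of znfx-1, a helicase of germ granules, held 24.7, 96.9 and 73.4 RPKM in wild type and 50.3, 158 and 98.1 RPKM in met-2 set-25. All 4 repaired libraries were above their own never mutant library, and the bin did not pass (adjusted p = 0.249 by limma). pals-22, which restrains the response to intracellular pathogens, held 24.7, 80.0 and 73.3 RPKM and 29.8, 113 and 93.1 RPKM at III:132001-133000, with no overlap between never mutant and repaired libraries, and did not pass (adjusted p = 0.232). The heterochromatin factors had 25 of 100 bins higher in all 4 and 5 lower at a median of 0.26, of which wild type gave 0.54 and met-2 set-25 0.02. The RNAi factors had 22 of 173 (12.7%) higher and 9 (5.2%) lower at a median of 0.04. Over all tested bins 15% were higher in all 4 and 13.2% lower.

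Of 159 tested microRNA bins, 56 (35.2%) were higher in all 4 repaired libraries and 13 (8.2%) lower, at a median of 0.36, with 0 called. All tested bins had shares of 15% and 13.2%. The bin of mir-71, which also overlaps ppfr-1 and F16A11.6, held 99.3, 244 and 244 RPKM in wild type and 95.9, 349 and 194 RPKM in met-2 set-25, at 1.33 ± 0.31 (SE, limma adjusted p = 0.249). The lists of structural RNAs had medians of −0.01 for rRNA genes over 14 bins and for tRNA genes over 511, −0.20 for snRNA genes over 118 and −0.004 for snoRNA genes over 220. Pseudogenes had a median of 0.06 over 1242 bins, lincRNA genes 0.19 over 130, the 21U-RNA clusters of chromosome IV 0.08 over 2640 and the mutated loci 0.08 over 23.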
